A study of Mus musculus with 9 samples.

Results

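The comparison described here set 3 RNA sequencing libraries labelled ST2KO beside 3 libraries of wild-type regulatory T cells (Tregs) labelled as low in ST2, which makes 6 of the 9 samples of the series. All 6 came from mouse spleen and were labelled as Tregs; the other 3 samples were wild-type Tregs high in ST2, and their levels are given only beside those of the other groups. Members were taken by genotype label, and every gene row was used except the 27 rows whose symbol is a calendar date, which left 23393 gene rows. The series concerns ST2-positive Tregs in ischemic kidney injury, but the labels name no injury, treatment, allele, strain, sex or age for the spleen samples. They do not say how the ST2KO cells were gated on ST2, whether replicates came from separate animals, or whether animals were pooled. The p-values below therefore measure the spread between libraries, which may be technical.

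ST2, encoded by Il1rl1, is the receptor subunit that binds the alarmin IL-33, a cytokine released by damaged barrier and stromal cells. The bound receptor recruits IL-1 receptor accessory protein and signals through MyD88 and IRAK kinases to NF-kB and MAP kinases. In Tregs the receptor marks activated, tissue-type cells that can make the growth factor amphiregulin, and Tregs low in ST2 include more cells of the resting, recirculating kind.

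The targeted gene, Il1rl1, was higher in ST2KO than in ST2-low. The ST2-low cells are labelled as low in the product of this gene, so this contrast cannot test the knockout label. It stood at 57.7, 61.3 and 83.6 CPM in the ST2KO libraries and 2.16, 3.58 and 2.11 CPM in the ST2-low libraries. All 3 libraries labelled ST2KO lay above all 3 ST2-low libraries (log2 fold change 4.67 ± 0.29 (SE), adjusted p = 7.3e-06), and ST2-high stood at 494 ± 66 CPM. The deposited values are totals over a whole gene, and reads from a transcript that lacks a deleted stretch would be among them, so they do not test the label. ST2KO below stands for the libraries so labelled, and every direction is that of these libraries against ST2-low.

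Library totals ranged from 11659659 to 43406680 counts in ST2KO and from 19084575 to 20098456 in ST2-low. The ribosomal RNA gene Rn45s took 13.04% to 16.92% of the counts in the 6 libraries. Levels are given as CPM, counts per 1000000 counts of library size after TMM scaling. A gene was called when its adjusted p was under 0.05 in edgeR's quasi-likelihood test, fitted on all 9 libraries. Means carry their SD over 3 libraries per group, and fold changes are on the log2 scale, ST2KO over ST2-low. In bulk RNA a lower level can mean fewer cells of a type or less transcript per cell, and these cannot be told apart.

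Over all genes the contrast was broad. Of 12219 genes tested, 7607 (62.3%) were called, 4030 higher in ST2KO (33.0%) and 3577 lower (29.3%). In 4399 genes (36.0%) every ST2KO library lay above every ST2-low library, and in 3815 (31.2%) every ST2KO library lay below. Most calls were of small size: 838 called genes were at least 2-fold higher and 811 at least 2-fold lower, while 22 and 42 passed 8-fold. These percentages are the background against which each gene list below is read, and the median log2 fold change of all tested genes was 0.051. The split of the calls moved with the scaling, from 53.0% higher to 49.3% with DESeq2's size factors and 59.8% with upper-quartile factors.

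Large falls outnumbered large rises among genes of high level. Among genes with a mean over 100 CPM, 28 were called higher by at least 2-fold and 161 lower, and their median log2 fold change was -0.118. Among genes between 1 and 10 CPM, 1183 were called higher and 537 lower, with a median of 0.243. The 811 genes lower by at least 2-fold together held 94470 ± 866 CPM in ST2-low and 33204 ± 404 CPM in ST2KO. The 838 genes higher by at least 2-fold held 6959 ± 63.6 CPM in ST2-low and 16946 ± 83.7 CPM in ST2KO. These sums describe genes chosen on the same contrast.

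**Figure D1:**
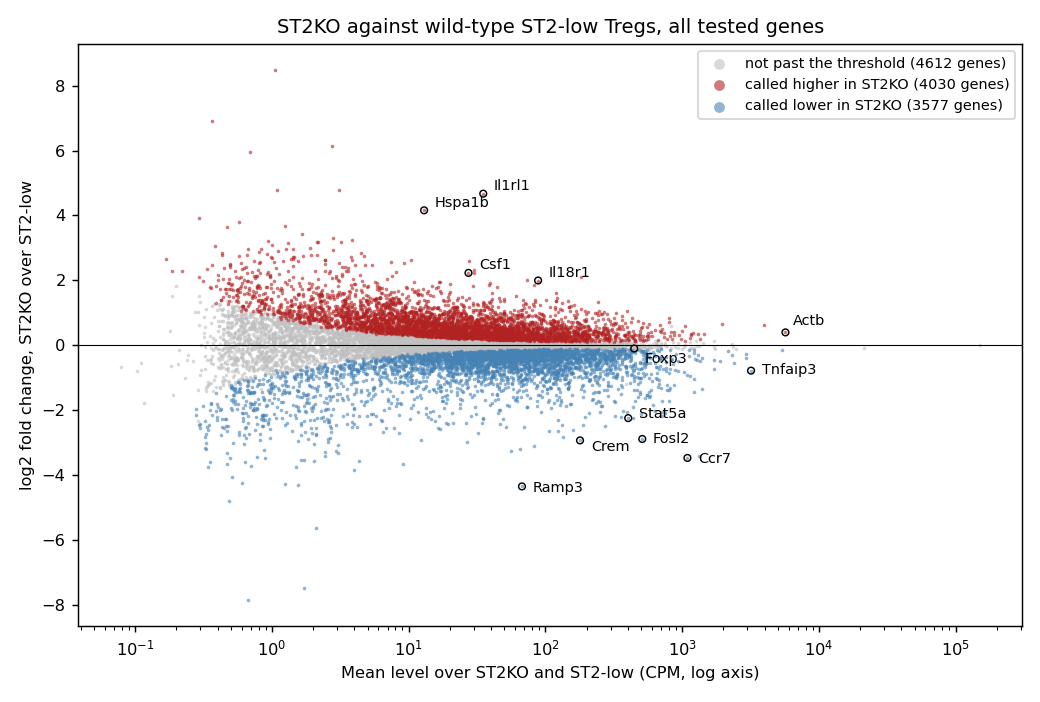
Each point is 1 of the 12219 tested genes, with its mean level over both groups in CPM on a log axis and its log2 fold change, ST2KO over ST2-low. Red points were called higher, blue points lower and grey points neither; Ccr7, Fosl2, Crem and Ramp3 lie far below 0 at levels where few genes lie as far above it.

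Defining Treg transcripts were present in all 6 libraries. Foxp3, the transcription factor that defines the lineage, stood at 437, 410.0 and 443 CPM in the ST2KO libraries and 445, 462 and 478 CPM in the ST2-low libraries. The ST2KO libraries lay just below the ST2-low libraries, a difference that did not pass (log2 fold change -0.10, adjusted p = 0.12). It passed as lower, at -0.138, with DESeq2's size factors, DESeq2's own test or a fit of the 6 libraries alone. Cd4 and Cd3e did not pass (log2 fold changes 0.01, adjusted p = 0.93, and 0.02, adjusted p = 0.76). Il2ra, the high-affinity IL-2 receptor chain, was higher in ST2KO, at 496 ± 36 CPM in ST2KO and 402 ± 23 CPM in ST2-low (log2 fold change 0.30 ± 0.06 (SE), adjusted p = 3.0e-05), as was Ikzf2, which encodes Helios (0.22).

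Of 23 tested Treg identity genes, 8 were higher, 11 were lower and 4 did not pass. That is 34.8% higher and 47.8% lower, beside 33.0% and 29.3% of all genes, and the largest changes of the list were falls. Stat5a, which carries the IL-2 signal to Foxp3, stood at 138, 137 and 147 CPM in the ST2KO libraries and 657, 676 and 664 CPM in the ST2-low libraries. No ST2KO library came near an ST2-low library, and the mean was 4.74-fold lower (log2 fold change -2.25 ± 0.05 (SE), adjusted p = 5.3e-25). Lrrc32, the surface protein GARP that holds latent TGF-beta, was at 377 ± 20.0 CPM in ST2KO and 1237 ± 26 CPM in ST2-low (log2 fold change -1.72 ± 0.06 (SE), adjusted p = 3.2e-21). Ctla4, the inhibitory receptor that strips CD80 and CD86 from antigen-presenting cells, stood at 739, 804 and 815 CPM in the ST2KO libraries and 1942, 2029 and 2014 CPM in the ST2-low libraries (log2 fold change -1.34 ± 0.05 (SE), adjusted p = 1.5e-19). Stat5b (-1.37) and the chromatin organizer Satb1 (-1.33) were lower too. On the higher side were Itgae, the integrin chain CD103 (1.04), the orphan receptor Gpr83 (0.84) and the semaphorin receptor Nrp1 (0.66).

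Components of the ST2 pathway other than Il1rl1 differed by less than 2-fold where they were called. Of 14 tested genes of the pathway (15 listed), 3 were higher (21.4%), 6 were lower (42.9%) and 5 did not pass, Il1rl1 included. Among all genes 33.0% were higher and 29.3% lower. Sigirr, a member of the receptor family that dampens IL-1 and IL-33 signalling, was higher, at 63.1 ± 2.7 CPM in ST2KO and 32.7 ± 0.66 CPM in ST2-low (log2 fold change 0.95 ± 0.07 (SE), adjusted p = 1.6e-13), and the proximal kinase gene Irak4 was higher (0.89). Tollip, an adaptor that restrains IRAK activity, was lower (-0.96), as were Irak2 (-0.68), the ubiquitin ligase gene Traf6 (-0.54) and the kinase adaptors Tab2 (-0.45) and Tab3 (-0.82). Il33 itself did not pass the filter on low counts.

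Genes next to Il1rl1 on its chromosome include other receptors of the IL-1 family. Within 5 Mb, 53 other genes were tested, of which 15 were higher, 19 lower and 19 did not pass, so that 64.2% were called against 62.3% of all genes. The nearest neighbour on one side, Il18r1, which encodes the IL-18 receptor chain, stood at 145, 145 and 133 CPM in the ST2KO libraries and 34.6, 39.1 and 32.9 CPM in the ST2-low libraries. Its levels in ST2KO were 3.99-fold higher (log2 fold change 1.99 ± 0.08 (SE), adjusted p = 1.1e-16), and ST2-high stood at 97.5 ± 12 CPM. Il18rap, the next gene and the partner chain of the same receptor, was higher as well (0.89). On the other side Il1rl2 and Il1r1 did not pass (adjusted p = 0.64 and 0.29), and Il1r2, the decoy receptor for IL-1, was lower (-1.44). Further away, Npas2 was higher (2.28) and Neurl3 (-2.08) and Arid5a (-1.76) were lower.

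**Figure D2:**
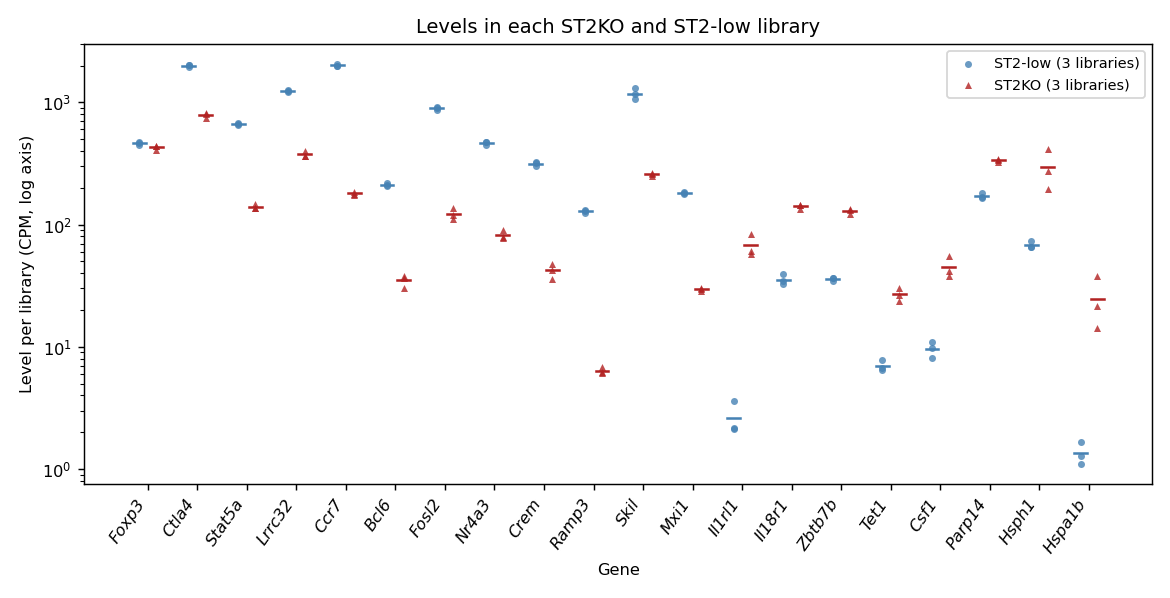
Levels of 20 genes in each library, in CPM on a log axis; circles are the 3 ST2-low libraries, triangles the 3 ST2KO libraries and bars the group means. Foxp3 lies close together in both groups, Ccr7 and Ramp3 lie far lower in ST2KO, and Hsph1 and Hspa1b are the genes shown that differ most among the ST2KO libraries.

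Cyclic AMP is the second messenger through which adenosine, prostaglandin E2 and neuropeptides restrain T cells; adenylate cyclases make it, phosphodiesterases destroy it, and it acts through protein kinase A and CREB. Of 33 tested genes of the pathway, 10 were higher, 15 were lower and 8 did not pass, so 45.5% were lower beside 29.3% of all genes, with a median log2 fold change of -0.07. Among receptors, Ramp3, an accessory protein that with Calcrl forms an adrenomedullin receptor, stood at 6.10, 6.25 and 6.79 CPM in the ST2KO libraries and 124, 131 and 129.7 CPM in the ST2-low libraries. The groups were 20.4-fold apart and tightly spaced within themselves (log2 fold change -4.35 ± 0.08 (SE), adjusted p = 4.4e-28), and ST2-high stood at 161 ± 11 CPM. Ramp1, the accessory protein of the CGRP receptor, was higher (0.41), and Adora2a, an adenosine receptor, was lower, at 56.3 ± 5.2 CPM in ST2KO and 199 ± 13 CPM in ST2-low (log2 fold change -1.84 ± 0.07 (SE), adjusted p = 1.2e-17). The prostaglandin receptor gene Ptger2 did not pass (0.16, adjusted p = 0.11).

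Past the receptors, the cyclase gene Adcy7 was higher, at 329, 332 and 331 CPM in the ST2KO libraries and 149.5, 164 and 165 CPM in the ST2-low libraries (log2 fold change 1.05 ± 0.05 (SE), adjusted p = 4.1e-17). All 6 phosphodiesterase genes tested in the list were lower: Pde4d stood at 146 ± 9.97 CPM in ST2KO and 592 ± 14 CPM in ST2-low (log2 fold change -2.03 ± 0.05 (SE), adjusted p = 1.9e-23), followed by Pde4a (-1.14), Pde4b (-1.08), Pde7a (-0.66), Pde8a (-0.66) and Pde3b (-0.35). Creb1, the cAMP-responsive activator, was higher (1.06), while Crem, which includes isoforms that repress the same sites, stood at 36.2, 42.1 and 48.02 CPM in the ST2KO libraries and 304, 319.9 and 323 CPM in the ST2-low libraries. Crem was 7.64-fold lower (log2 fold change -2.93 ± 0.07 (SE), adjusted p = 2.3e-23), and counts per gene do not separate its isoforms. Sik1, a kinase gene induced by CREB, was lower (-0.93), as was Prkar1a, the regulatory subunit that holds protein kinase A inactive (-0.69).

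Immediate early and AP-1 genes are switched on within minutes of receptor stimulation. Of 20 tested genes of this kind (21 listed), 4 were higher, 12 were lower and 4 did not pass. The share lower was 60.0% beside 29.3% of all genes, and the median log2 fold change was -0.47. Fosl2, an AP-1 subunit, stood at 110.1, 120.0 and 136 CPM in the ST2KO libraries and 869, 922 and 907 CPM in the ST2-low libraries (log2 fold change -2.89 ± 0.06 (SE), adjusted p = 4.8e-25). Nr4a3, an orphan nuclear receptor gene that reads out T cell receptor signalling, stood at 79.5, 77.7 and 89.9 CPM in the ST2KO libraries and 445, 472 and 472 CPM in the ST2-low libraries (log2 fold change -2.50 ± 0.06 (SE), adjusted p = 4.8e-25). Nr4a2 (-2.22), Nr4a1 (-1.73), the repressor gene Atf3 (-2.06) and the small MAF gene Maff (-1.23) were lower as well. The list did not move as a block: Egr1 (0.53), Egr2 (0.48), Jun (0.40) and Myc (0.77) were higher, and Fos stood at 408, 432 and 349 CPM in the ST2KO libraries and 357, 397 and 376 CPM in the ST2-low libraries without passing (adjusted p = 0.29).

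NF-kB subunits are held in the cytoplasm by inhibitors until upstream kinases release them. Of 26 tested NF-kB pathway genes, 6 were higher, 18 were lower and 2 did not pass, a share of 69.2% lower beside 29.3% of all genes. Every subunit gene was lower: Rel stood at 141, 152 and 152 CPM in the ST2KO libraries and 475, 500.2 and 522 CPM in the ST2-low libraries (log2 fold change -1.75 ± 0.05 (SE), adjusted p = 6.8e-22), and Nfkb2 (-0.95), Relb (-0.79), Rela (-0.74) and Nfkb1 (-0.73) were lower by less. Map3k14, the NIK kinase of the non-canonical branch, was at 60.8 ± 0.84 CPM in ST2KO and 222 ± 7.7 CPM in ST2-low (log2 fold change -1.87 ± 0.06 (SE), adjusted p = 3.1e-22), and Birc3 (-1.16) and Birc2 (-0.64), ubiquitin ligases that degrade it, were lower. The inhibitors Nfkbie (-0.89), Nfkbid (-0.76), Nfkbib (-0.71) and Tnfaip3 (-0.78) were lower, while the classical inhibitor Nfkbia differed less (-0.32). Of the kinases that act on the inhibitors, Ikbke (0.76) and Ikbkb (0.31) were higher, as was their scaffold gene Ikbkg (0.38), and Chuk was lower (-0.27). The adaptor genes Traf3 (0.46) and Traf2 (0.33) and the deubiquitinase gene Cyld (0.28) made up the other rises.

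Cytokine signalling genes split evenly in number. Of 19 tested receptor, JAK and STAT genes, 9 were higher, 9 were lower and 1 did not pass. Each share was 47.4%, beside 33.0% higher and 29.3% lower among all genes. Besides Stat5a, Jak2 stood at 229, 241 and 242 CPM in the ST2KO libraries and 691, 747 and 698 CPM in the ST2-low libraries (log2 fold change -1.59 ± 0.06 (SE), adjusted p = 1.2e-20) and Stat3 at 281 ± 7.1 CPM in ST2KO and 821 ± 12 CPM in ST2-low (log2 fold change -1.55 ± 0.05 (SE), adjusted p = 5.7e-21). Receptor chains Il4ra (-1.12) and Il21r (-0.98) were lower, and Il15ra (1.30), Il9r (1.63) and Il7r (0.49) were higher. Stat2, a factor of the type I interferon receptor, did not pass (adjusted p = 0.48). Of 13 tested feedback genes of this pathway, 2 were higher (15.4%), 8 were lower (61.5%) and 3 did not pass. The lower side was led by the kinase gene Pim3 (-1.19), Socs3 (-1.14) and Cish (-0.70). Socs2 was higher (0.86); the other higher member, Socs1 (0.19), lost its call without any 1 of ST2KO replicates 2 and 3 and ST2-low replicates 1, 2 and 3. It also lost it with DESeq2's size factors, the DESeq2 test, the 6 libraries alone or thinned libraries, and each of these settings left 1 higher member.

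TGF-beta is released from a latent complex by integrins and acts through SMAD factors. Of 19 tested genes of its activation and response (20 listed), 2 were higher, 14 were lower and 3 did not pass, a share of 73.7% lower beside 29.3% of all genes. Of the genes that make or free it, Lrrc32 is given above, Itgav, the integrin chain that opens the latent complex, was at 148 ± 7.8 CPM in ST2KO and 389 ± 23 CPM in ST2-low (log2 fold change -1.40 ± 0.06 (SE), adjusted p = 5.5e-18), and Tgfb1 was lower (-0.74). Response genes that feed back on SMADs were lower too: Skil stood at 251, 259.7 and 262 CPM in the ST2KO libraries and 1300.3, 1165 and 1060.1 CPM in the ST2-low libraries (log2 fold change -2.19 ± 0.07 (SE), adjusted p = 1.5e-16), and Pmepa1 (-1.85), Tgif1 (-1.69) and Tgif2 (-1.59) each lay below ST2-low in all 3 libraries.

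DUSP phosphatases switch off MAP kinases, and RGS proteins switch off G proteins. Of 24 tested signal brakes of these kinds, 7 were higher, 14 were lower and 3 did not pass, shares of 29.2% and 58.3% beside 33.0% and 29.3% of all genes. Dusp10, which acts on p38 and JNK, stood at 299, 267 and 268 CPM in the ST2KO libraries and 1124, 1177 and 1155 CPM in the ST2-low libraries (log2 fold change -2.05 ± 0.06 (SE), adjusted p = 2.3e-23). Dusp16 (-2.39), Dusp4 (-1.91), Dusp5 (-1.73) and Rgs2 (-1.37) were lower, and Rgs3 was higher, at 99.8 ± 5.6 CPM in ST2KO and 38.3 ± 3.1 CPM in ST2-low (log2 fold change 1.38 ± 0.08 (SE), adjusted p = 2.8e-15). At the T cell receptor itself the count leaned the other way. Of 29 tested genes of the receptor complex and its kinases, 15 were higher, 8 were lower and 6 did not pass. The share higher was 51.7% beside 33.0% of all genes, while the share lower, 27.6%, was near the 29.3% of all genes. The adaptor gene Lcp2, which encodes SLP-76 (0.95), the phosphatase gene Ptpn6 (0.89) and the kinase gene Lck (0.30) were higher, while Bcl10 (-1.11) and Ptpn22 (-1.06) were lower. Of 23 tested calcium and calcineurin genes, 10 were higher, 8 were lower and 5 did not pass, shares of 43.5% and 34.8%. The lower count was 4 with upper-quartile factors and 5 without ST2KO replicate 1. The store-operated calcium channel genes diverged: Orai1 was lower, at 39.9, 41.5 and 51.9 CPM in the ST2KO libraries and 97.7, 102 and 98.1 CPM in the ST2-low libraries (log2 fold change -1.18 ± 0.07 (SE), adjusted p = 4.5e-14), and Orai2 (0.58) and Orai3 (1.03) were higher.

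The CD28 family and related surface molecules include costimulatory and inhibitory receptors and their ligands. Of 19 tested genes of this kind, 4 were higher (21.1%), 12 were lower (63.2%) and 3 did not pass. Among all genes 33.0% were higher and 29.3% lower. Cd83, a surface marker of activated cells, stood at 41.4, 46.3 and 47.9 CPM in the ST2KO libraries and 261, 269 and 287 CPM in the ST2-low libraries (log2 fold change -2.60 ± 0.06 (SE), adjusted p = 4.8e-25). Icos (-0.98), Cd28 (-0.71) and Pdcd1, which encodes PD-1 (-1.60), were lower. Cd226, an activating receptor for CD155, was higher, at 73.2 ± 3.2 CPM in ST2KO and 27.1 ± 1.1 CPM in ST2-low (log2 fold change 1.44 ± 0.07 (SE), adjusted p = 4.6e-17), and so was Cd200 (1.16). Of 16 tested TNF receptor genes, 6 were higher and 6 were lower (37.5% each), and 4 did not pass. The largest changes were falls: Tnfrsf10b (-2.08), Tnfrsf1b, the TNF receptor of Tregs (-1.52), Tnfrsf4, which encodes OX40 (-1.40), and Tnfrsf9, which encodes 4-1BB (-1.31). Of 25 tested suppressive and repair mediators (31 listed), 9 were higher, 9 were lower and 7 did not pass, in a split near that of all genes. Areg, the repair factor amphiregulin, stood at 8.20, 7.30 and 9.49 CPM in the ST2KO libraries and 24.95, 28.5 and 28.4 CPM in the ST2-low libraries (log2 fold change -1.73 ± 0.10 (SE), adjusted p = 8.4e-16) with ST2-high at 77.7 ± 5.7 CPM, and Il10 (-1.41) and Vegfa (-2.56) were lower. Lymphotoxins Lta (1.53) and Ltb (1.24) and the macrophage growth factor Csf1 were higher, Csf1 at 41.99, 38.3 and 55.2 CPM in the ST2KO libraries and 9.72, 10.9 and 8.04 CPM in the ST2-low libraries (log2 fold change 2.23 ± 0.12 (SE), adjusted p = 5.4e-14).

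Ccr7, which draws T cells into lymphoid tissue, stood at 186, 178 and 176 CPM in the ST2KO libraries and 2062, 1968 and 1981 CPM in the ST2-low libraries. This 11.1-fold difference (log2 fold change -3.47 ± 0.06 (SE), adjusted p = 3.2e-28) came with lower S1pr1, the receptor for exit into lymph (-1.28), Klf2, the factor that maintains both (-1.12), and Cxcr4 (-1.18). Ccr8, a receptor of tissue Tregs, was lower as well (-1.69). Of 21 tested chemokine and egress receptors (22 listed), 6 were higher, 8 were lower and 7 did not pass, shares of 28.6% and 38.1% beside 33.0% and 29.3%. Log2 fold changes in this list ran from -3.47 to 1.77, so the falls named here do not stand for all members. Of 20 tested genes of naive or quiescent T cells, 6 were higher, 10 were lower and 4 did not pass; within that list Klf7 (-1.12) and Tob1 (-1.12) were lower and Il7r, the IL-7 receptor chain, was higher. Of 19 tested integrin chains, 7 were higher, 5 were lower and 7 did not pass, shares of 36.8% and 26.3%, near those of all genes. Itga4 (0.63) and Itgb7 (0.73), which pair as the gut-homing integrin, and Itga2 (1.33) were higher.

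More transcription regulators of helper lineages were lower than higher. Of 20 tested regulators of this kind, 6 were higher, 11 were lower and 3 did not pass. The share lower was above the 29.3% of all genes, and the share higher was near the 33.0% of all genes. No tested member rose by more than 0.56 on the log2 scale, and the largest changes of the list were falls. Bcl6, the repressor of follicular T cells, stood at 30.1, 36.5 and 38.3 CPM in the ST2KO libraries and 207, 219.8 and 211 CPM in the ST2-low libraries (log2 fold change -2.63 ± 0.07 (SE), adjusted p = 3.4e-22), and Rora (-1.61), Ahr (-0.93) and Id2 (-0.76) were lower. Outside the list, Zbtb7b, which encodes the CD4-lineage factor ThPOK, was higher, at 133, 122 and 133 CPM in the ST2KO libraries and 36.8, 34.4 and 36.6 CPM in the ST2-low libraries (log2 fold change 1.85 ± 0.07 (SE), adjusted p = 1.6e-20). Tet1, an enzyme that oxidizes methylcytosine, stood at 26.7, 30.3 and 23.9 CPM in the ST2KO libraries and 6.48, 6.73 and 7.79 CPM in the ST2-low libraries (log2 fold change 1.95 ± 0.12 (SE), adjusted p = 1.2e-14). Both were among the 25 largest rises, a list open only to genes whose groups do not overlap.

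**Figure D3:**
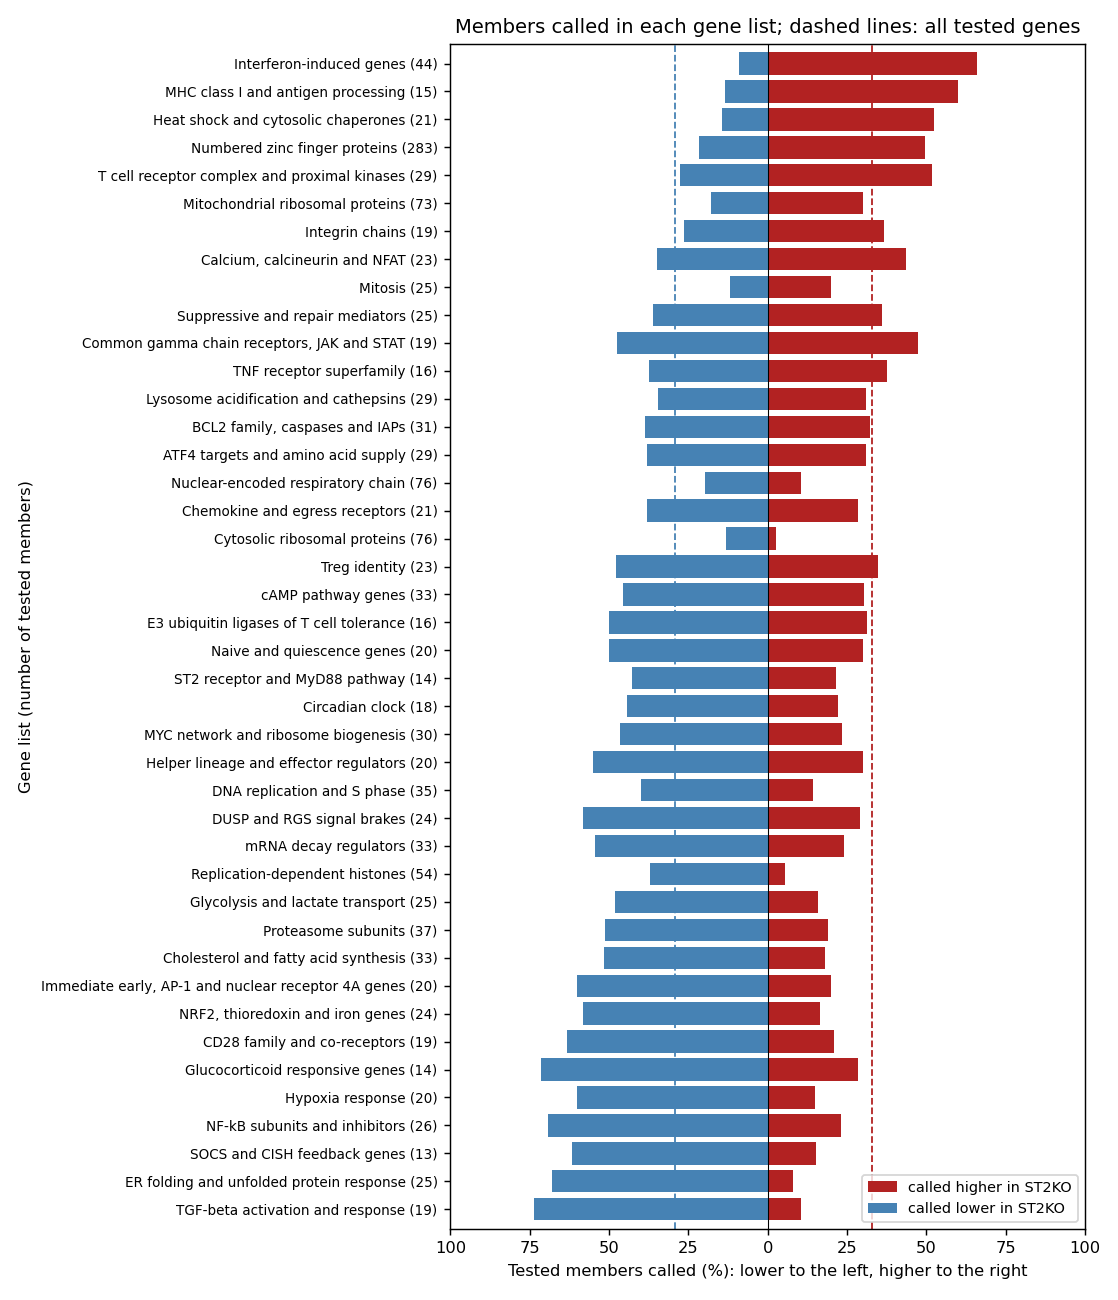
For each of 42 gene lists the red bar gives the percentage of tested members called higher in ST2KO and the blue bar the percentage called lower; dashed lines give the 33.0% and 29.3% of all tested genes. TGF-beta, NF-kB and unfolded protein response genes lie at the lower end, and interferon-induced genes, MHC class I and heat shock genes at the higher end.

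The core clock is a loop in which CLOCK and BMAL1 (Arntl) drive PER, CRY and REV-ERB repressors. Of 18 tested clock genes, 4 were higher (22.2%), 8 were lower (44.4%) and 6 did not pass. Among all genes 33.0% were higher and 29.3% lower. Per1 stood at 305, 293 and 291 CPM in the ST2KO libraries and 835, 875 and 901 CPM in the ST2-low libraries (log2 fold change -1.55 ± 0.05 (SE), adjusted p = 8.3e-21), Nr1d2 at 89.4 ± 8.4 CPM in ST2KO and 201 ± 9.7 CPM in ST2-low (-1.17), and Bhlhe40 (-1.25), Cry1 (-0.56) and Cry2 (-0.70) were lower. Npas2, which can replace CLOCK, was higher, at 5.60, 5.26 and 6.63 CPM in the ST2KO libraries and 1.03, 1.38 and 1.16 CPM in the ST2-low libraries (log2 fold change 2.28 ± 0.25 (SE), adjusted p = 2.6e-09), and Dbp (1.19) and Per3 (1.07) were higher. Arntl, Per2 and Tef did not pass (adjusted p = 0.19, 0.96 and 0.98). Clock was higher (0.22) and lost its call without ST2-low replicate 3. The labels give no time of day for any sample. Of 14 tested genes that respond to glucocorticoids, 4 were higher (28.6%), 10 were lower (71.4%) and 0 did not pass. Rgs2 and Per1, given above, and Klf9 (-0.69) were lower, and Fkbp5 (0.76), Ddit4 (0.83) and Txnip (0.42) were higher.

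In 3 metabolic lists between 48.0% and 60.0% of tested members were lower, beside 29.3% of all genes. Of 25 tested genes of glycolysis and lactate transport, 4 were higher, 12 were lower and 9 did not pass. Slc16a3, the lactate exporter MCT4, stood at 9.79, 11.9 and 10.6 CPM in the ST2KO libraries and 98.7, 101 and 104 CPM in the ST2-low libraries (log2 fold change -3.26 ± 0.08 (SE), adjusted p = 1.0e-24), and Slc16a1 (-1.16), Hk2 (-1.35) and the glucose transporter gene Slc2a1 (-0.70) were lower. Pdk1, a kinase that inhibits pyruvate dehydrogenase, was higher (0.69). Of 20 tested hypoxia response genes (21 listed), 3 were higher, 12 were lower and 5 did not pass. Epas1, which encodes HIF-2alpha, stood at 6.18, 5.55 and 6.05 CPM in the ST2KO libraries and 51.9, 44.1 and 46.3 CPM in the ST2-low libraries (log2 fold change -2.99 ± 0.10 (SE), adjusted p = 6.3e-21); Hif1a (-0.43) and its partner gene Arnt (-0.95) were lower by less. Of 33 tested genes of cholesterol and lipid synthesis, 6 were higher, 17 were lower and 10 did not pass. The enzymes of the last step of triglyceride synthesis led the list, with Dgat1 at 38.4, 38.97 and 47.03 CPM in the ST2KO libraries and 215, 231 and 225 CPM in the ST2-low libraries (log2 fold change -2.45 ± 0.13 (SE), adjusted p = 2.6e-07) and Dgat2 lower as well (-2.93). Insig1 (-1.45), Mvk (-1.61) and Cyp51 (-1.09), all of the sterol branch, were lower, and Mvd (0.86), of the same branch, was higher.

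Genes of protein folding in the endoplasmic reticulum and of amino acid supply included large falls. Of 25 tested folding and unfolded protein response genes, 2 were higher, 17 were lower and 6 did not pass, a share of 68.0% lower beside 29.3%. The stress sensors Eif2ak3, which encodes PERK (-1.78), and Ern1, which encodes IRE1 (-1.30), and the factor gene Xbp1 (-1.69) were lower, and the chaperone Hspa5 stood at 610.5 ± 32 CPM in ST2KO and 1014 ± 8.2 CPM in ST2-low (-0.73). Of 29 tested ATF4 targets and amino acid supply genes (30 listed), 9 were higher, 11 were lower and 9 did not pass. These shares, 31.0% higher and 37.9% lower, were not far from the 33.0% and 29.3% of all genes. No tested member rose by more than 0.50 on the log2 scale. The higher count was 5 without ST2-low replicate 2. Outside the list, Got1, an aspartate aminotransferase, was among the 25 largest falls at 52.6, 51.5 and 70.1 CPM in the ST2KO libraries and 310.1, 325 and 314 CPM in the ST2-low libraries (log2 fold change -2.46 ± 0.08 (SE), adjusted p = 4.7e-15). The chains of the large neutral amino acid transporter, Slc7a5 (-1.62) and Slc3a2 (-1.23), and Slc38a2 (-1.06) were lower.

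Genes of NRF2, thioredoxin and iron handling were more often lower than higher. Of 24 tested NRF2, thioredoxin and iron genes, 4 were higher (16.7%), 14 were lower (58.3%) and 6 did not pass. Among all genes 33.0% were higher and 29.3% lower. The higher count of the list was 2 with the DESeq2 test or without ST2-low replicate 1. Hmox1, which breaks down heme, stood at 7.38, 4.97 and 7.61 CPM in the ST2KO libraries and 30.2, 34.8 and 40.7 CPM in the ST2-low libraries (log2 fold change -2.39 ± 0.18 (SE), adjusted p = 3.9e-08), and the iron exporter gene Slc40a1 was at 5.38 ± 1.1 CPM in ST2KO and 21.2 ± 3.7 CPM in ST2-low (-1.94). Both are high in red pulp macrophages of the spleen, as are Vcam1 (-2.44), Mrc1 (-2.72) and Itgad (-2.67), which were lower too. Mrc1 and Itgad are in no marker list here. The summed level of 18 tested myeloid and dendritic markers (21 listed) was 96.5 to 110.3 CPM in ST2KO and 238.7 to 282 CPM in ST2-low, and 17 of the 18 were called lower. The part of these cells in the iron gene values was not tested. Other genes of iron uptake and storage were lower as well: Fth1 (-0.92), Ftl1 (-0.74) and Tfrc (-0.86).

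Markers of other cell types were counted in the same way, beside 33.0% of all genes called higher and 29.3% called lower. Summed levels of 8 tested neutrophil markers were 3.44 to 5.32 CPM in ST2KO and 13.1 to 46.2 CPM in ST2-low, with 6 called lower; ST2-low replicate 2 was the highest, and Retnlg lost its call without it, as S100a8 did without ST2KO replicate 1. B cell markers summed to 249 to 345 CPM in ST2KO and 339 to 494 CPM in ST2-low, and 8 of 14 were called lower. Without ST2KO replicate 2 or without ST2-low replicate 1 that count was 5. All 4 tested plasma cell markers were lower, summing to 61.0 to 70.8 CPM against 83.5 to 132 CPM. The 2 tested mast cell and basophil markers, Kit and Hdc, were lower (-2.11 and -2.32), summing to 1.69 to 2.45 CPM against 9.78 to 10.8 CPM. NK cell markers (1 of 8 called in each direction), CD8 T cell markers (none of 3 called by edgeR at the threshold or at an unadjusted p under 0.05) and erythroid and platelet markers (1 of 8 called, Ppbp) differed less. For NK markers the lower count was 2 without ST2KO replicate 1 or ST2-low replicate 3, with DESeq2's size factors, the 6 libraries alone or thinned libraries, and the higher count was 0 with thinned libraries or a 5 CPM filter. For erythroid and platelet markers the lower count was 2 without ST2KO replicate 1 or ST2-low replicate 1 and with the 6 libraries alone. Without ST2KO replicate 2 or ST2-low replicate 3 it was 0, and 1 marker was higher. Camp was at 0 counts in ST2KO replicate 3 and Gp9 in ST2KO replicate 2, and no other tested marker was at 0 in these libraries.

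**Figure D4:**
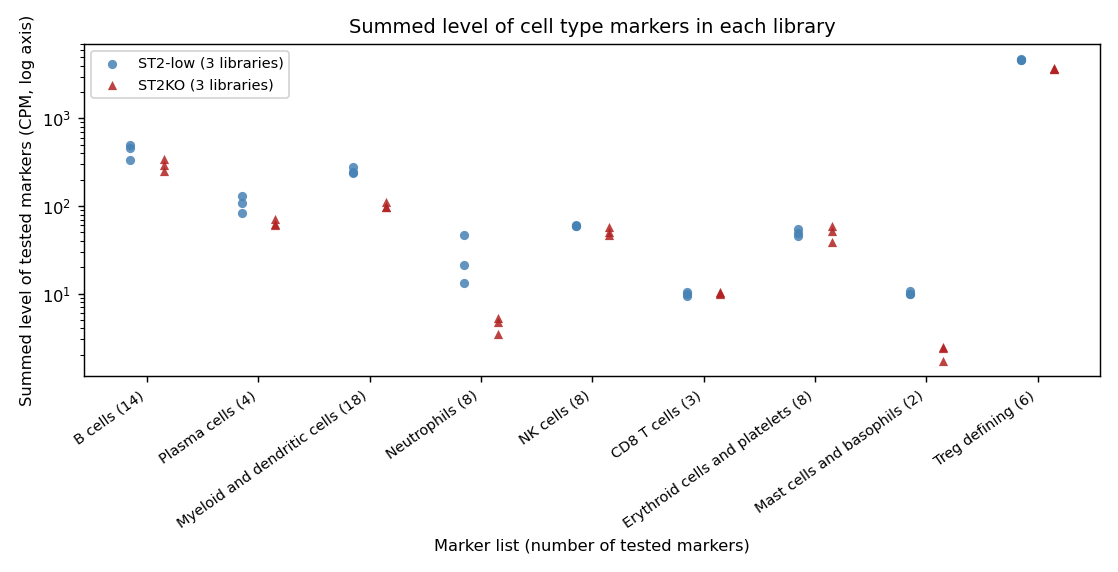
Summed level of the tested markers of 9 cell types in each library, in CPM on a log axis; circles are ST2-low and triangles ST2KO libraries. Myeloid, neutrophil, plasma cell, mast cell and NK cell sums are lower in every ST2KO library, as is the Treg sum, while B cell, CD8 T cell and erythroid sums overlap; Treg defining genes are far above every other list.

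Several antagonists within the MYC network were lower while Myc was higher. MXD and MNT proteins pair with MAX and repress genes that MYC activates. Of 30 tested genes of the network and of ribosome biogenesis (31 listed), 7 were higher (23.3%), 14 were lower (46.7%) and 9 did not pass. Among all genes 33.0% were higher and 29.3% lower. Myc stood at 66.1, 59.7 and 61.3 CPM in the ST2KO libraries and 34.9, 33.5 and 41.8 CPM in the ST2-low libraries (log2 fold change 0.77 ± 0.07 (SE), adjusted p = 2.0e-10), Mxi1 at 29.4, 28.7 and 30.1 CPM in the ST2KO libraries and 179, 185 and 182 CPM in the ST2-low libraries (log2 fold change -2.63 ± 0.06 (SE), adjusted p = 4.8e-25), Mxd1 at 111 ± 7.9 CPM in ST2KO and 407 ± 21 CPM in ST2-low (-1.88) and Mnt at 59.3 ± 5.7 CPM in ST2KO and 202 ± 4.1 CPM in ST2-low (-1.76). Mlx (1.06) and Mga (0.50) were higher. The nucleolar genes Gnl3 (-0.74), Ncl (-0.46) and Npm1 (-0.36) were lower.

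Cytosolic ribosomal proteins had the smallest share of called members among the 42 lists. Of 76 tested ribosomal protein genes (80 listed), 2 were higher, 10 were lower and 64 did not pass, so 15.8% were called against 62.3% of all genes, with a median of -0.06 on the log2 scale. In the class over 100 CPM, where 76.7% of all genes were called, 10 of 70 ribosomal protein genes were. The count of lower members was not stable, and was 2 with upper-quartile factors, 16 with DESeq2's size factors, 17 with the DESeq2 test and 35 in a fit of the 6 libraries alone, and between 3 and 6 without ST2KO replicate 2 or 3 or without ST2-low replicate 1 or 3. Rps2 was lower, at 492 ± 16 CPM in ST2KO and 611 ± 12 CPM in ST2-low (-0.31). The higher count was 1 without ST2-low replicate 2 or with the DESeq2 test and 4 with upper-quartile factors. Nuclear-encoded respiratory chain genes were called in 30.3%, against 62.3% of all genes. Of 76 tested genes of this kind (77 listed), 8 were higher, 15 were lower and 53 did not pass. Of these, 5 were higher without ST2KO replicate 1 or ST2-low replicate 3 or with the DESeq2 test, and with upper-quartile factors 17 were higher and 9 lower.

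Cell cycle lists did not move together. Of 35 tested replication genes, 5 were higher, 14 were lower and 16 did not pass; the licensing factor gene Cdt1 stood at 36.1, 38.04 and 39.8 CPM in the ST2KO libraries and 101, 99.9 and 97.9 CPM in the ST2-low libraries (log2 fold change -1.40 ± 0.06 (SE), adjusted p = 8.6e-19), Pcna was lower (-0.70) and E2f2 was higher (1.04). The higher count of this list was 3 in 7 alternatives, 4 of which left out 1 library (ST2KO replicate 1 or 2, ST2-low replicate 1 or 3). Of 25 tested mitosis genes, 5 were higher, 3 were lower and 17 did not pass (3 were higher without ST2-low replicate 1 and 8 with upper-quartile factors), and Mki67 stood at 132, 136 and 142 CPM in the ST2KO libraries and 115, 129.5 and 134 CPM in the ST2-low libraries (adjusted p = 0.069) beside 307 ± 4.2 CPM in ST2-high. Of 54 tested replication-dependent histone genes (65 listed), 3 were higher, 20 were lower and 31 did not pass; without ST2-low replicate 1 the counts were 1 higher and 13 lower, and 1 was higher without ST2-low replicate 3 or with the DESeq2 test. Of 31 tested cell death regulators (32 listed), 10 were higher, 12 were lower and 9 did not pass. Pmaip1, which encodes NOXA (-1.91), and Bcl2l11, which encodes BIM (-1.33), were lower, and Cflar, the inhibitor of caspase-8 (1.35), and Bid (1.36) were higher.

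Interferon-induced genes were the list with the largest share of higher members. Of 44 tested interferon-induced genes (45 listed), 29 were higher, 4 were lower and 11 did not pass. The share higher was 65.9% beside 33.0% of all genes, the median log2 fold change was 0.68, and with upper-quartile factors 2 were lower. Parp14 stood at 344, 338 and 325 CPM in the ST2KO libraries and 165, 169 and 181 CPM in the ST2-low libraries (log2 fold change 0.97 ± 0.05 (SE), adjusted p = 3.1e-16). The Schlafen gene Slfn5 stood at 186, 171 and 160.4 CPM in the ST2KO libraries and 71.5, 67.8 and 61.6 CPM in the ST2-low libraries (log2 fold change 1.37 ± 0.07 (SE), adjusted p = 3.7e-17), and the GTPase gene Iigp1 (1.37), Ifit2 (1.41) and Usp18, which limits interferon receptor signalling (1.83), were higher. Irf1 did not pass (adjusted p = 0.33). MHC class I genes divided. Of 15 tested genes of class I presentation (17 listed), 9 were higher (60.0%), 2 were lower (13.3%) and 4 did not pass. The immunoproteasome subunits Psmb8 (0.64), Psmb9 (0.82) and Psmb10 (0.62), the peptide transporter Tap1 (0.60) and the coactivator Nlrc5 (0.44) were higher. B2m (-0.09, adjusted p = 0.19) and H2-K1 (-0.06, adjusted p = 0.26) did not pass. The lower count of the MHC list was 4 with DESeq2 and 5 in a fit of the 6 libraries alone. The proteasome as a whole leaned the other way: of 37 tested subunit genes (39 listed), 7 were higher (18.9%), 19 were lower (51.4%) and 11 did not pass. Among all genes 29.3% were lower.

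Heat shock proteins fold and protect other proteins under stress. Of 21 tested chaperone genes (22 listed), 11 were higher, 3 were lower and 7 did not pass, a share of 52.4% higher beside 33.0% of all genes. Hsph1, a large cytosolic chaperone, stood at 273, 196 and 417 CPM in the ST2KO libraries and 72.9, 65.6 and 65.6 CPM in the ST2-low libraries (log2 fold change 2.11 ± 0.27 (SE), adjusted p = 5.4e-04). Chordc1, a partner of HSP90, stood at 116, 95.9 and 151 CPM in the ST2KO libraries and 49.7, 47.1 and 45.4 CPM in the ST2-low libraries (log2 fold change 1.34 ± 0.16 (SE), adjusted p = 1.0e-04), and Stip1, which links HSP70 to HSP90, was higher (0.95). Hspa1b and Hspa1a, near-identical copies that counting may not separate, stood at 21.7, 14.1 and 37.9 and at 5.03, 3.91 and 8.43 CPM in ST2KO, and at 1.67, 1.27 and 1.11 and 0.594, 0.551 and 0.703 CPM in ST2-low. In all 11 members called higher, ST2KO replicate 3 was highest and ST2KO replicate 2 lowest. The constitutive Hsp90ab1 had the same order at 1301, 1111 and 1501 CPM in the ST2KO libraries and 1387, 1285 and 1314 CPM in the ST2-low libraries and did not pass (adjusted p = 0.8). ST2KO replicate 3 was also the library with the fewest counts. With all libraries thinned to its depth, 11 members were again called higher. Thinning keeps the proportions within each library, so the source of the replicate order was not tested. Lower members numbered 5 without ST2KO replicate 3, with DESeq2, limma-voom, a 5 CPM filter, or the 6 libraries alone.

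**Figure D5:**
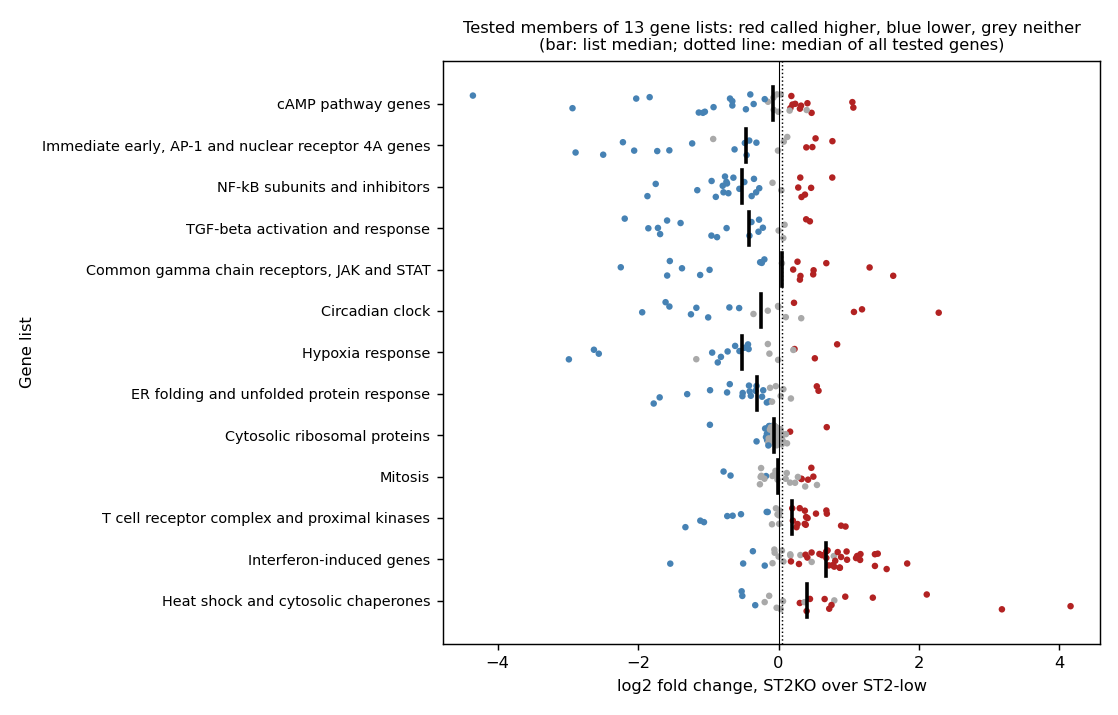
Log2 fold changes, ST2KO over ST2-low, of the tested members of 13 gene lists; each point is a gene, red if called higher, blue if called lower and grey if neither, a bar marks the list median and the dotted line the median of all tested genes. Most ribosomal proteins lie close to 0, while the cAMP list runs from Ramp3 at the far left to Creb1 and Adcy7.

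Zinc finger genes named by number (Zfp) include many DNA-binding repressors of the KRAB type. Of 283 tested Zfp genes (333 listed), 140 were higher, 61 were lower and 82 did not pass, which is 49.5% higher beside 33.0% of all genes. The share depended on level: between 1 and 10 CPM, 60.6% of 104 Zfp genes were higher beside 34.6% of all genes in that class. Between 10 and 100 CPM the figures were 43.7% of 142 and 36.9%, and over 100 CPM 30.0% of 20 and 27.7%. Zfp937 stood at 18.4, 18.00 and 16.9 CPM in the ST2KO libraries and 2.48, 3.03 and 3.16 CPM in the ST2-low libraries (log2 fold change 2.62 ± 0.16 (SE), adjusted p = 4.1e-15), and Zfp82 (2.16) and Zfp60 (1.78) were higher. Zfp281, a repressor gene outside the KRAB type, was lower (-0.73). Reads of related Zfp genes may be shared between copies.

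Regulators of mRNA decay shorten the life of transcripts, among them those of cytokines. Of 33 tested regulators of this kind, 8 were higher, 18 were lower and 7 did not pass, a share of 54.5% lower beside 29.3% of all genes; the higher count was 5 without ST2-low replicate 3. Tob2, which recruits deadenylases, stood at 276, 297 and 285 CPM in the ST2KO libraries and 779, 839.5 and 859 CPM in the ST2-low libraries (log2 fold change -1.53 ± 0.05 (SE), adjusted p = 8.9e-21). The endonuclease genes Zc3h12a, which encodes Regnase-1 (-0.78), and Zc3h12c (-1.65) were lower, and Zfp36l1 (-0.63) was lower where its paralog Zfp36l2 (0.36) was higher. Of 16 tested ubiquitin ligases of T cell tolerance (17 listed), 5 were higher, 8 were lower and 3 did not pass, and Cblb was lower, at 363 ± 15 CPM in ST2KO and 697 ± 34 CPM in ST2-low (log2 fold change -0.94 ± 0.05 (SE), adjusted p = 1.9e-15). The lower count of that list was 5 without ST2KO replicate 1 or without ST2-low replicate 1.

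Among the largest falls outside these lists were Vps37b, a subunit of the ESCRT-I sorting complex, at 235, 194 and 257 CPM in the ST2KO libraries and 2393, 2381 and 2447 CPM in the ST2-low libraries (log2 fold change -3.40 ± 0.08 (SE), adjusted p = 8.3e-21), and Ell2, a transcription elongation factor, at 12.9 ± 1.3 CPM in ST2KO and 118 ± 11 CPM in ST2-low (-3.21). Tubb2a stood at 22.00, 18.3 and 20.2 CPM in the ST2KO libraries and 116, 118 and 121 CPM in the ST2-low libraries; this tubulin gene has a near-identical copy, so its value is uncertain. Gprc5a (-3.65), Ninj1 (-2.57), Bpnt1 (-2.70) and Trp53inp2 (-2.52) were lower too. The largest rises included Thap2 at 15.4, 16.01 and 15.6 CPM in the ST2KO libraries and 3.13, 2.43 and 2.46 CPM in the ST2-low libraries (log2 fold change 2.55 ± 0.17 (SE), adjusted p = 4.5e-14), Apol8 (2.23), Sp6 (2.32), Fam78a (2.01), Cd200r1 (1.79) and Rnf43, a ubiquitin ligase gene that limits WNT receptors (1.84). No ST2KO library overlapped with an ST2-low library in any of these genes, which the rule for naming required.

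Promoter sequences were read for lists whose members share known regulators. RefSeq's promoter table of GRCm38.p6, with 250 bases before and 50 after each start, held 12333 windows for 9712 of the tested genes (79.5%). That is under 80%, so the shares below are void as a check of all tested genes and describe only these windows. Each motif was searched on both strands, and windows that overlap or hold several motifs were counted for each: the cAMP response element TGACGTCA, the AP-1 site TGANTCA, the interferon-stimulated response element GAAANNGAAA, the NF-kB site and the heat shock element, as GAANNTTCNNGAA or TTCNNGAANNTTC. The letters of the first and second motif cannot match at the same place. The cAMP response element was in 3.03% of all windows, in 1.85% of windows of genes called higher and in 4.59% of those called lower, and at 2-fold or more the shares were 1.70% and 3.92%. The interferon element was in 3.15% of all windows and in 57.5% of the 40 windows of the interferon list (21 of 32 genes). The AP-1 site was in 5.01% of all windows, in 5.09% of those of genes called higher and in 4.89% of those called lower. Among genes that differed by at least 2-fold it was in 5.62% of windows of higher genes and in 7.10% of windows of lower genes. The heat shock element was in 0.511% of all windows and in 21.7% of 23 windows of the heat shock list, and the NF-kB site in 0.422% and in 12.9% of 31 windows of the NF-kB list. Not every motif was frequent in the list of its name. The cAMP response element was in 4.76% of 42 windows of the cAMP list. The AP-1 site was in 0.00% of 21 windows of the immediate early and AP-1 list, 20.0% of the interferon list and 22.6% of the NF-kB list. A match describes letters and shows no binding.

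The stretches below, each 100 bases that end before an annotated start of the gene, show the cAMP response element in genes lower in ST2KO: the growth factor Areg, the small MAF gene Maff, the NF-kB inhibitor Nfkbid and the protein kinase A subunit Prkar1a. They are shown 5′ to 3′ in the direction of the gene, from RefSeq on GRCm38.p6, with the element in capitals.
Areg, chr5:91139492-91139591, plus strand: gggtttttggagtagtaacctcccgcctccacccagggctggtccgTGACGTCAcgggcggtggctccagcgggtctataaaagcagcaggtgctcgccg
Maff, chr15:79347420-79347519, plus strand: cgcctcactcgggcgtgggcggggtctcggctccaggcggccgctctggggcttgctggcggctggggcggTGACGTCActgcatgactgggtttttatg
Nfkbid, chr7:30422306-30422405, plus strand: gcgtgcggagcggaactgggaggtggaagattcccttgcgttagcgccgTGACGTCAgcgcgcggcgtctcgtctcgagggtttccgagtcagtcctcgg
Prkar1a, chr11:109650849-109650948, plus strand: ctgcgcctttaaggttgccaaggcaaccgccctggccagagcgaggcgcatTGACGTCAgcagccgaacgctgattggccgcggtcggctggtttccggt
Their log2 fold changes were -1.73, -1.23, -0.76 and -0.69. Counted from the annotated start of the window shown, the element begins at -61, -29, -51 and -49. Prkar1a had 2 windows with the element, and in the window not shown it did not end before the start. These genes were chosen after their values were seen.

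Slfn5 and Ifit3 show the interferon-stimulated response element, in capitals, in genes higher in ST2KO, on the same build and in the same orientation.
Slfn5, chr11:82951902-82952001, plus strand: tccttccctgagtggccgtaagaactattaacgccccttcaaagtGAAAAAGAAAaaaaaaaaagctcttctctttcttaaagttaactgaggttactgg
Ifit3, chr19:34583328-34583427, plus strand: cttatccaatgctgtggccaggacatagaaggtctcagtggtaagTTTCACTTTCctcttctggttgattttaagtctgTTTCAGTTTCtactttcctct
Ifit3, an antiviral protein gene, stood at 11.1, 5.55 and 13.3 CPM in the ST2KO libraries and 4.05, 3.42 and 2.81 CPM in the ST2-low libraries (log2 fold change 1.54 ± 0.28 (SE), adjusted p = 2.0e-04), and its ST2KO libraries differed more among themselves than those of Slfn5. The same element also lay before Fosl2, which was lower, and before Stat2, which did not pass.

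Csf1 and Nfkbia carry the NF-kB site, in capitals, and moved in opposite directions.
Csf1, chr3:107760569-107760668, minus strand: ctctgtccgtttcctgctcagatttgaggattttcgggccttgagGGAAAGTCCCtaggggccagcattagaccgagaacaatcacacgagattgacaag
Nfkbia, chr12:55492648-55492747, minus strand: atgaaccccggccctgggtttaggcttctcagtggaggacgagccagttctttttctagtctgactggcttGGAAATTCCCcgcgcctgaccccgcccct
Csf1 was higher (2.23) and Nfkbia lower, at 338 ± 5.9 CPM in ST2KO and 422 ± 15 CPM in ST2-low (log2 fold change -0.32 ± 0.05 (SE), adjusted p = 2.4e-06). Both differences were larger than the spread between replicates.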

How the data were processed

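The deposited files hold whole-number read counts per gene symbol, as the authors made them, with no normalization. The labels name no read kit, aligner, genome build, annotation or counter, and none of these is given in the sources used here. Overlapping and antisense genes and near-identical copies are therefore uncertain. Rows with a date as symbol (27 of 23420, 0.1816% to 0.1957% of the counts) were left out. Genes were kept with filterByExpr (minimum count 10, minimum total 15), library sizes were scaled by TMM, and ST2KO was contrasted with ST2-low in edgeR 4.0.16 (robust glmQLFit and glmQLFTest, R 4.3.3) on all 9 libraries, 1 coefficient per group, with Benjamini-Hochberg adjustment over all genes tested and a threshold of 0.05. The procedure was also run on simulated data in which few genes changed, as many up as down. That setting cannot test the scaling where, as here, 62.3% of genes were called. limma 3.58.1 (voom) and DESeq2 1.42.0 served as alternatives, beside other scalings, filters, thinning and leaving out each library. Precision follows the total counts, 11659659 to 43406680 per library. Because no 2 libraries of a group agreed within sampling noise, each counted once. That does not show that they came from separate animals.

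Of 23393 gene rows, 23234 matched RefSeq names. The 42 gene lists, 9 marker lists and the comparison itself were chosen with earlier results of these data known, so no list was given a test of its own; members are counted beside all tested genes. Named were Il1rl1, the 25 largest rises and falls (called, not overlapping, at least 10 CPM in the higher group; no predicted gene models, pseudogenes or receptor segments), up to 6 called members per list (at least 5 CPM) and its 3 members of highest level, all members of the Treg identity, cAMP, NF-kB, STAT, SOCS, clock, immediate early and marker lists, neighbours of Il1rl1, the 10 most variable genes in ST2KO and the 10 of highest level called in each direction. Genes whose promoters are printed were picked from these by hand.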

Additional observations from a re-analysis of the deposited data

How the results depend on the processing

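The number of genes called was within 1.5 times of 7607 in all alternatives except a test against a minimum fold of 1.5, which called 2111 genes, 1025 higher and 1086 lower. With upper-quartile factors 7772 were called, with DESeq2's size factors 7558, with the DESeq2 test 7299, with limma-voom 7757, without a filter 7737, with a 5 CPM filter 6538, with the 6 libraries alone 7707, thinned to the shallowest library 7154 and without Rn45s 7610. Leaving out 1 library gave 6952 to 7355 calls, 3525 to 3895 higher and 3321 to 3602 lower. No setting shifted the median of all genes by more than 0.070. Replicate numbers are shared by the groups, but deviations of same-numbered libraries correlated at -0.0211, 0.039 and -0.00261, so they were not treated as paired; with the replicate block 7622 genes were called, 4039 higher and 3583 lower. Of 488 named genes called, 445 kept their call in every alternative that tested them, the minimum fold aside, and 43 lost it in at least 1. A gene that a filter removed, or that had no adjusted p in a setting, was not counted as losing its call there. With the minimum fold 219 lost it. No direction reversed. Of 102 list counts, 27 moved by over 1.5 times in some other alternative; most are given beside their list. With the 5 CPM filter fewer markers were tested, and 10 myeloid, 0 neutrophil, 2 plasma cell and 1 mast cell or basophil markers were called lower. Of the 6 Treg defining genes, 2 were lower with DESeq2's size factors, the DESeq2 test or the 6 libraries alone, Foxp3 among them. Genes near 1 CPM are limited by depth: under 1 CPM 33.9% were called, over 100 CPM 76.7%.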

Other observations

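Replicates varied to a like degree in both groups. Over 7356 genes with at least 10 CPM in both, the median SD of log2 CPM was 0.070 in ST2KO and 0.066 in ST2-low, beside a median absolute log2 fold change of 0.308. A few genes varied far more. Slc15a2, a peptide transporter gene, stood at 153, 108 and 16.9 CPM in the ST2KO libraries and 109, 38.4 and 39.5 CPM in the ST2-low libraries, and Lars2, the mitochondrial leucyl-tRNA synthetase gene, at 187, 324 and 695 CPM in the ST2KO libraries and 316, 187 and 615 CPM in the ST2-low libraries. Ttn, the giant muscle protein gene, stood at 663, 1104 and 1258 CPM in the ST2KO libraries and 532, 831 and 619 CPM in the ST2-low libraries. None of these 3 genes passed (adjusted p = 0.54, 0.91 and 0.16).

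Genes of lysosomes and of mitochondrial ribosomes had mixed directions. Lysosome genes were 31.0% higher and 34.5% lower in number, and mitochondrial ribosomal genes 30.1% and 17.8%. Among all genes 33.0% were higher and 29.3% lower. Of 29 tested lysosome genes (30 listed), 9 were higher, 10 were lower and 10 did not pass, with the proton pump subunits Atp6v0d1 (-0.90) and Atp6v1e1 (-0.83) lower and Atp6v0a2 (0.53) higher. Of 73 tested mitochondrial ribosomal protein genes, 22 were higher, 13 were lower and 38 did not pass; Mrpl34 stood at 6.53, 7.07 and 5.64 CPM in the ST2KO libraries and 2.21, 2.76 and 3.26 CPM in the ST2-low libraries (log2 fold change 1.23 ± 0.19 (SE), adjusted p = 2.2e-06) and Mrps22 was lower (-0.76). Among the called genes of highest level, Actb, a cytoplasmic actin gene, stood at 6510.4, 6267 and 6615 CPM in the ST2KO libraries and 5016, 4758 and 4968 CPM in the ST2-low libraries (log2 fold change 0.40 ± 0.05 (SE), adjusted p = 2.5e-07), and Tmsb4x (0.36) and Macf1 (0.61) were higher as well. The elongation factor gene Eef2 was lower, at 2538 ± 99.8 CPM in ST2KO and 3315 ± 57 CPM in ST2-low (-0.38).

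Transcript GC content, available for 95.3% of tested genes, moved with the calls to a small degree. From the lowest to the highest of 4 equal classes of GC, the share called lower went from 35.9% to 25.1% and the median log2 fold change from -0.006 to 0.098; its part in the list counts was not tested.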
